A study of Macaca mulatta with 102 samples.

Results

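The comparison set T cells of 3 rhesus macaques, taken 14 days after hematopoietic cell transplantation under tacrolimus with methotrexate, against T cells of untransplanted healthy macaques. The members were chosen by their group labels, Tac.Mtx.D14 (3 arrays, animals R.19, R.20 and R.21) and Healthy.Control (46 arrays of 45 animals, the pair of arrays of 1 animal averaged), which are 49 of the 102 arrays of the series. All probe sets of the deposited table were read, and 31711 of 52865 were tested after controls and probe sets of low signal were left out. The members were taken by label and not by a measured value, though with earlier results of these data known. The study followed macaques given their own or donor cells, and donor cell recipients were under several regimens against graft-versus-host disease. CD3 T cells were sorted from blood by flow cytometry, and their RNA was hybridised to Affymetrix rhesus arrays. Next to the healthy animals, 2 further groups were used: Tac.Mtx.F, the same 3 animals at a later day (49 for R.19, 67 for R.20 and 26 for R.21), and Bela.Siro.D14, 3 other animals (R.38, R.42 and R.49) at day 14 under sirolimus, an inhibitor of mTOR, with belatacept, which keeps CD28 from its ligands. The labels give neither the conditioning before the transplant nor the ages or drug levels, and the drugs are named in the group labels by abbreviations. Animal R.49 of Bela.Siro.D14 also gave a healthy array.

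Tacrolimus binds the immunophilin FKBP12 and blocks the phosphatase calcineurin, which otherwise dephosphorylates NFAT and so lets it enter the nucleus and switch on cytokine genes after T cell receptor signals. Methotrexate is a folate antagonist that hinders thymidylate and purine synthesis, so that dividing cells run short of DNA precursors. The pair is a classical prophylaxis against graft-versus-host disease, in which donor T cells attack host tissue. The tumour suppressor p53 is a transcription factor activated by DNA damage and related stress. It switches on genes of cell cycle arrest, DNA repair and apoptosis.

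Values are log2 RMA signals, so a difference of 1 is a 2-fold change. The 3 Tac.Mtx.D14 arrays and 13 healthy arrays lie in labelled batch 3. The fitted difference is the Tac.Mtx.D14 mean minus the mean of those 13 healthy arrays, and its standard error rests on the spread of all 16 groups. Ranges of healthy animals are over all 45. The 3 animals are different animals, so n = 3 counts animals, and no animal gave arrays to both groups. Array medians were 5.15 to 5.17 in Tac.Mtx.D14 and 5.16 to 5.31 in healthy controls. The 3' over 5' signal of actin controls (log2), which increases with RNA degradation, was 0.70 to 0.72 in Tac.Mtx.D14 and 0.25 to 3.95 in healthy controls. T cell genes were mostly inside the healthy range. CD8A, the CD8 coreceptor chain, measured 12.46, 12.43 and 12.68 in R.19, R.20 and R.21, against 11.63 to 12.76 in healthy animals (median 12.36). CD4 measured 6.98, 7.08 and 6.41, against 6.10 to 7.43 (median 6.74), and TRAT1, an adaptor of the T cell receptor, 12.30, 11.67 and 11.15, against 10.76 to 12.12 (median 11.51). R.19 for TRAT1 alone was above the healthy range. None of the 7 tested genes of the core T cell list passed the threshold, beside 1.18% of all genes. Of these 7, 1 had an unadjusted p under 0.05, and CD3D had no single-gene probe set among those tested. In such bulk RNA fewer cells of a type and less RNA per cell cannot be told apart.

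R.21 stood apart by erythroid RNA. AHSP, the chaperone of alpha haemoglobin, measured 8.00 in R.21 but 3.58 in R.19 and 3.63 in R.20, against 2.97 to 4.67 in healthy animals (median 3.40). ALAS2, the erythroid enzyme of haem synthesis, measured 10.89 in R.21, 6.14 in R.19 and 6.08 in R.20, against 5.17 to 8.18 in healthy animals. HBB, a globin gene, was not high in R.21, with 5.84, 5.04 and 5.07 in R.19, R.20 and R.21, against 5.06 to 10.47 in healthy animals. The mean of the 7 erythroid genes, as a difference from the batch 3 healthy mean, was 1.86 in R.21, -0.37 in R.20 and -0.30 in R.19, against -0.60 to 0.90 in healthy animals. It was still 0.95 in R.21 in its Tac.Mtx.F array. Counts are therefore also given without R.21.

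Against healthy controls, 279 of 31711 probe sets (0.88%) passed an adjusted p of 0.05 (limma, Benjamini-Hochberg), 242 of them higher (0.763%) and 37 lower (0.117%). A total of 4561 (14.4%) had an unadjusted p under 0.05. Taken as genes, with 1 probe set a gene, 126 of 10718 (1.18%) passed, 115 higher (1.07%) and 11 lower (0.103%). The median difference of all genes was 0.02. Among the 115 higher genes, 39 lay above every healthy animal in all 3 animals. In 23 this held for R.20 and R.21 but not R.19, in 13 for R.19 and R.20 but not R.21, in 4 for R.19 and R.21 but not R.20, and in 20 for R.21 alone. For the remaining genes, 7 exceeded all healthy animals in R.20 alone, 3 in R.19 alone and 6 in no animal. Over all genes, called or not, 55 (0.513%) lay above every healthy animal in all 3 animals and 6 (0.056%) below. Single arrays moved the counts: without R.21 35 genes passed, all higher and 34 of them among the 126, without R.20 52 passed, and without R.19 195 passed, of which 89 were among the 126.

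**Figure D1:**
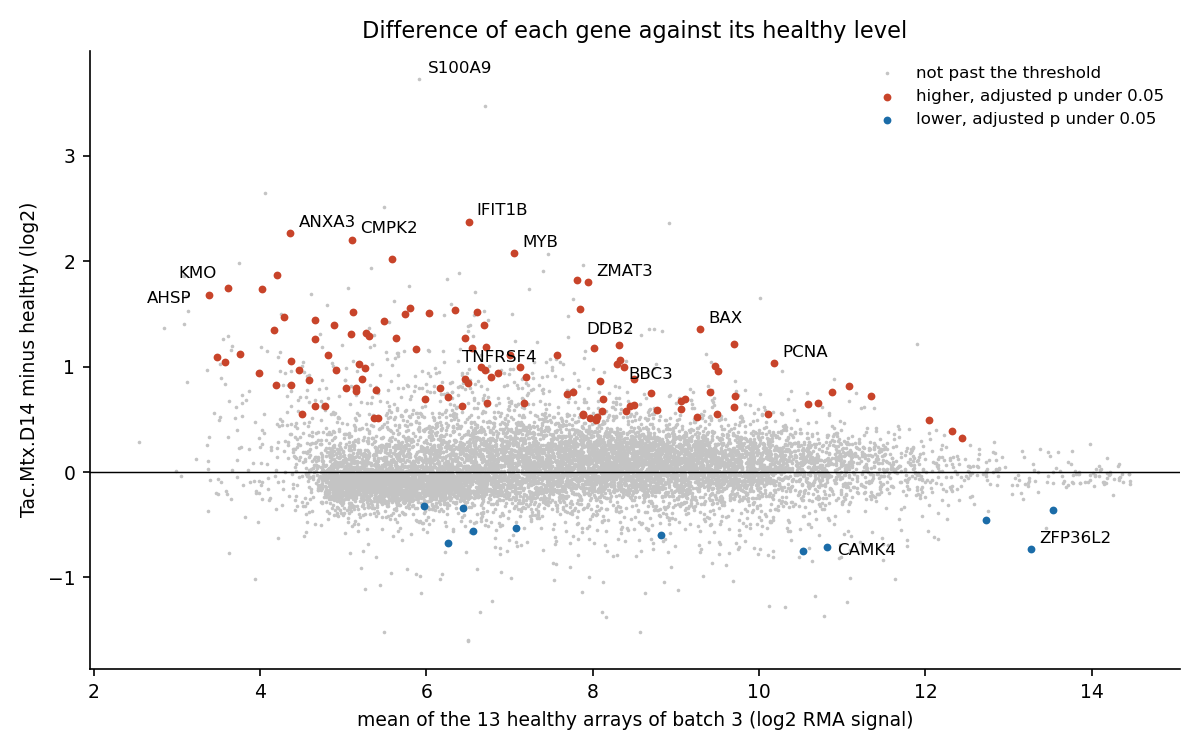
Each point is a gene, placed by its mean log2 RMA signal in the 13 healthy arrays of batch 3 (horizontal axis) and by its fitted log2 difference, Tac.Mtx.D14 minus healthy (vertical axis), with the 115 higher genes in red, the 11 lower ones in blue and labels on some genes named in the text. Genes past the threshold lie mostly above 0, and S100A9, the largest labelled difference, is grey because it did not pass.

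The 12 largest rises among genes with all 3 animals outside the healthy quartiles were IFIT1B, ANXA3, CMPK2, MYB, TRIB1, MOCOS, LOC702527, ZMAT3, DHRS2, AHSP, GCNT1 and CREG1. ANXA3, a calcium-dependent phospholipid-binding annexin abundant in neutrophils, measured 6.39, 6.67 and 6.82 in R.19, R.20 and R.21, against 2.99 to 5.52 in healthy animals (median 4.58). All 3 animals lay above every healthy animal, and the difference was 2.26 ± 0.48 (SE, adjusted p = 0.00453). ANXA3 did not pass without R.21, without R.20 or with the mean of the monocyte and myeloid genes as a covariate. MOCOS, the sulfurase of the molybdenum cofactor, measured 5.44, 6.39 and 6.38, against 3.49 to 5.38 (median 4.27), a difference of 1.87 ± 0.37. GCNT1, which builds branched O-glycans on T cell surface proteins, measured 7.31, 7.64 and 7.14, against 4.67 to 6.74 (median 5.93), and differed by 1.56 ± 0.31. DHRS2, a dehydrogenase of the short-chain family, measured 6.46, 5.55 and 5.28, against 3.59 to 4.93 (median 4.04), a difference of 1.74 ± 0.36. In these 3 genes too, every Tac.Mtx.D14 value was above the highest healthy one. TRIB1, a pseudokinase that hands substrates to a ubiquitin ligase, exceeded all healthy animals in R.20 (8.84) and R.21 (7.59) but not in R.19 (6.42), against 4.68 to 7.22, with a difference of 2.02 ± 0.54. The unannotated LOC702527 differed by 1.82 ± 0.43. MOCOS, TRIB1 and LOC702527 did not pass without R.21 or without R.20, GCNT1 not without R.20 and DHRS2 not without R.19. The largest rise of all probe sets past the threshold belonged to one with no gene name, MmugDNA.4000.1.S1_at, at 8.23, 7.84 and 7.25, against 3.79 to 6.70 (median 4.93), a difference of 2.90 ± 0.34 (adjusted p = 1.68e-08).

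Several of the most reliable rises were genes known as targets of p53, a group put together after these values were seen and therefore given as a description. ZMAT3, a p53-induced RNA-binding zinc finger protein, measured 10.02, 10.09 and 9.13 in R.19, R.20 and R.21, against 6.03 to 8.85 in healthy animals (median 8.14). All 3 animals were above every healthy one, and the difference was 1.80 ± 0.30 (adjusted p = 0.000164). BAX, a pore-forming protein of the mitochondrial death pathway, measured 10.82, 10.63 and 10.49, against 8.52 to 9.999 (median 9.36), again without overlap. Its difference was 1.36 ± 0.19 (adjusted p = 3.93e-06), and all 3 of its probe sets passed. DDB2, a DNA damage sensor of nucleotide excision repair, measured 9.48, 9.27 and 8.83, against 7.59 to 8.85 (median 8.04), so that R.21 fell just inside the healthy range. The difference was 1.17 ± 0.16 (adjusted p = 1.43e-06). BBC3, which encodes the death-promoting BH3-only protein PUMA, measured 9.78, 9.46 and 8.73, against 7.81 to 8.91 (median 8.38), and differed by 1.02 ± 0.16 (adjusted p = 4.81e-05), with R.21 inside the healthy range.

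TREML2, a receptor of the TREM family, measured 8.34, 8.07 and 7.98 in R.19, R.20 and R.21, against 6.58 to 7.91 in healthy animals (median 7.28), a difference of 1.00 ± 0.19. PHLDA3, an inhibitor of AKT signalling, measured 7.50, 7.44 and 7.19, against 6.35 to 7.17 (median 6.76), a difference of 0.66 ± 0.11. In both, the lowest of the 3 animals lay just above the highest healthy one. POLH, a translesion DNA polymerase, differed by 0.69 ± 0.17, and FBXO22, an F-box protein of a ubiquitin ligase, by 0.74 ± 0.16. PCNA, the sliding clamp of DNA polymerase, which also belongs to the replication genes below, measured 10.75, 11.65 and 11.23, against 9.26 to 10.64 (median 10.14), and differed by 1.03 ± 0.26. Of 25 tested genes of this group, 9 were higher, 0 lower, and 6 lay above every healthy animal in all 3 animals, beside 1.07%, 0.103% and 0.513% of all genes. Because the group was put together after these values were seen, the counts are no test of it. The group's median difference was 0.63.

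Not every well known target passed the test. CDKN1A, the cell cycle inhibitor p21, measured 7.38, 8.71 and 8.09 in R.19, R.20 and R.21, against 6.23 to 8.07 in healthy animals, with a difference of 0.89 ± 0.35 that did not pass (adjusted p = 0.222). MDM2, the ubiquitin ligase that degrades p53, differed by 0.68 ± 0.30 (adjusted p = 0.276) and the death receptor FAS by 0.71 ± 0.33 (adjusted p = 0.308). BTG2, an antiproliferative gene, had the lowest value of the group, -1.38 ± 0.42 (adjusted p = 0.0952). In a list of apoptosis genes that mixes targets of p53 with other members, 3 of 18 tested genes were higher (ZMAT3, BAX and BBC3), 0 lower, with a median of 0.35. Of all genes 1.07% were higher and 0.103% lower. BCL2L14, a BCL2 family gene outside the group, named after its value was seen, measured 6.29, 6.53 and 5.50, against 4.16 to 5.28, a difference of 1.44 ± 0.26 (adjusted p = 0.000601). Of the 9 p53 genes, 7 passed without R.21, 6 without R.20 and 9 without R.19. With the mean of the monocyte and myeloid genes as a covariate 7 passed, POLH and PCNA being lost.

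**Figure D2:**
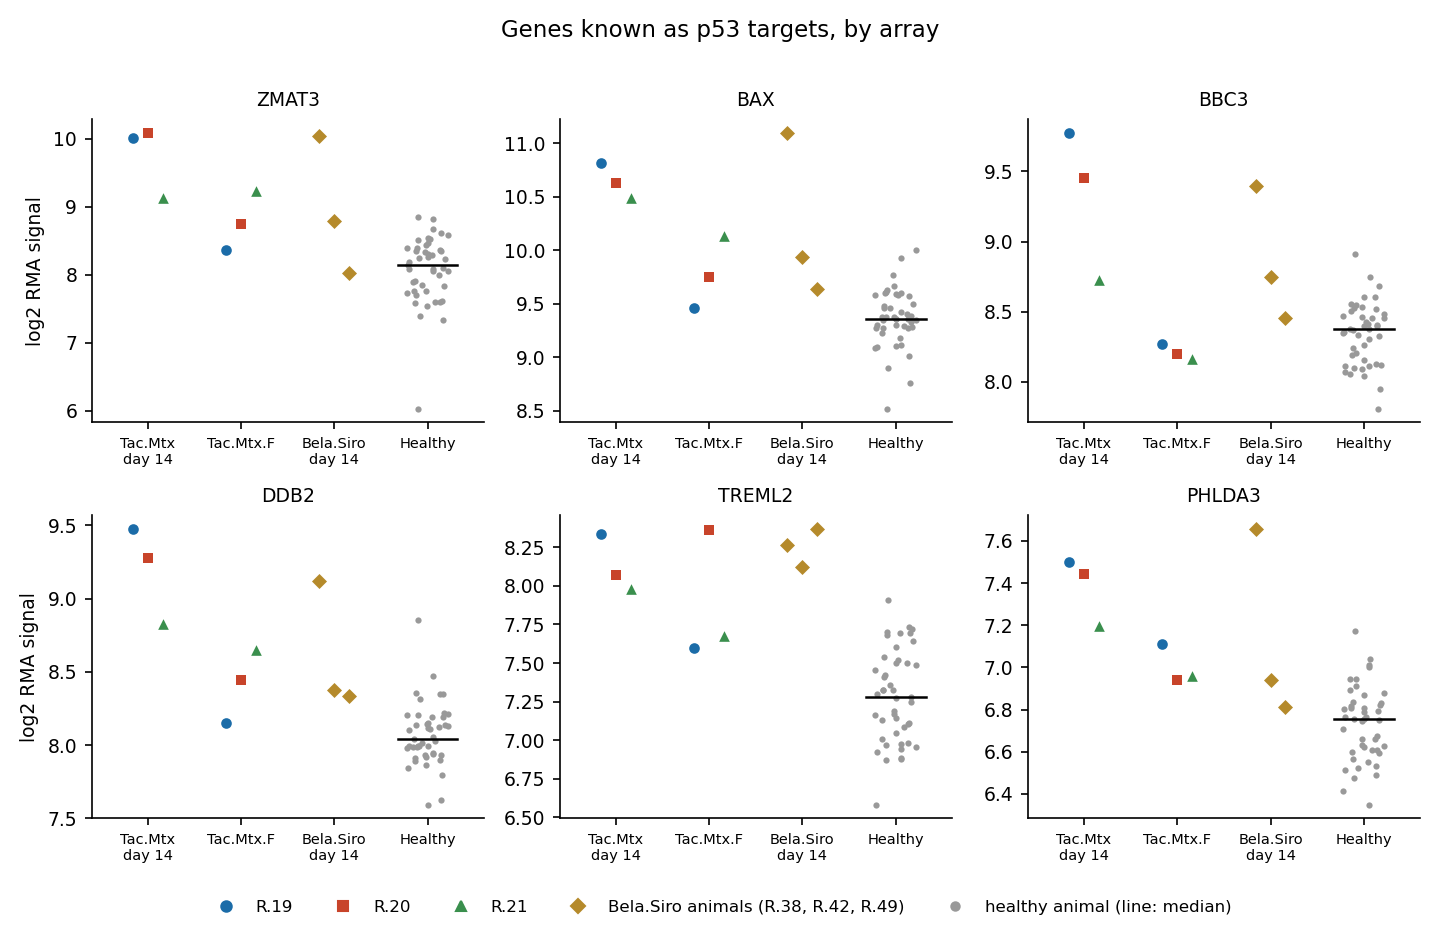
Log2 RMA signal (vertical axes, each on its own scale) of 6 genes known as p53 targets on each array of Tac.Mtx.D14, Tac.Mtx.F, Bela.Siro.D14 and healthy controls, with 1 symbol per Tac.Mtx animal and a line at the healthy median. All Tac.Mtx.D14 points lie above the healthy median, and BBC3 in the same animals at the later day lies between 8.16 and 8.27.

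Genes of cell division separated the 3 animals: they were high in R.20 and R.21 and at the healthy level in R.19. MKI67, the proliferation antigen Ki-67, measured 6.07 in R.19, 8.53 in R.20 and 7.67 in R.21, against 5.45 to 7.27 in healthy animals (median 6.07). TOP2A, a topoisomerase of replicating cells, measured 5.94, 9.43 and 8.90, against 4.49 to 7.75 (median 6.25). R.20 and R.21 were above every healthy animal for both genes, and R.19 was near the healthy median for MKI67 and below it for TOP2A. With all 3 animals neither passed: the difference of MKI67 was 1.05 ± 0.40 (adjusted p = 0.204) and that of TOP2A 1.84 ± 0.54 (adjusted p = 0.079). None of the 16 tested genes of mitosis passed, although 10 had an unadjusted p under 0.05 and 15 a positive difference, with a median of 0.69. Of all genes 1.18% passed, a share at which a list of this size would often hold none. CENPF, of the kinetochore, and CCNA2, cyclin A2, the mitosis genes of highest mean signal, differed by 0.61 ± 0.30 and 0.61 ± 0.27. The mean of the mitosis genes was -0.18 in R.19, 1.42 in R.20 and 0.91 in R.21, against -0.54 to 0.73 in healthy animals. Without R.19, 5 mitosis genes passed (CCNB2, CDK1, KIF23, MKI67 and TOP2A), beside 195 of all 10718 genes. Without R.20 or without R.21 0 passed, beside 52 and 35 of all genes. List counts with single animals left out were chosen after the data were seen, so they are no test of the list.

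Replication genes showed the same division between animals. MCM2, of the replicative helicase, measured 7.07 in R.19, 8.59 in R.20 and 8.48 in R.21, against 6.78 to 7.78 in healthy animals (median 7.19), and UHRF1, which maintains DNA methylation at replication forks, 5.31, 8.60 and 7.79, against 4.72 to 6.90 (median 5.49). Both genes were picked after their values were seen, and their differences, 0.85 ± 0.24 and 1.62 ± 0.48, did not pass. Of 21 tested genes of DNA replication and the G1/S transition, PCNA alone was higher and 0 were lower, beside 1.07% and 0.103% of all genes. Their median was 0.57, with 16 unadjusted p-values under 0.05. The mean of these genes was -0.16, 1.16 and 0.90 in R.19, R.20 and R.21, against -0.31 to 0.34 in healthy animals. Without R.19 13 of the 21 passed, beside 195 of all 10718 genes. Without R.20 or without R.21 none passed, beside 52 and 35 of all genes. As for mitosis, these counts were chosen after the data were seen and are no test of the list.

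Other genes of proliferation passed with all 3 animals, and are named after their values were seen. E2F2 and E2F7, transcription factors of the cell cycle, differed by 1.52 ± 0.34 and 1.35 ± 0.35, the checkpoint kinase CHEK1 by 1.40 ± 0.30 and the kinetochore genes CENPU and ZWINT by 1.43 ± 0.32 and 1.19 ± 0.29. DTL, a substrate receptor that acts with PCNA, differed by 1.17 ± 0.31, RMI2, of the complex that dissolves recombination intermediates, by 1.52 ± 0.34 and TIPIN, of the fork protection complex, by 0.79 ± 0.19. In each of these 8 genes R.19 had the lowest of the 3 values, for example 5.22 for CHEK1 against 7.19 in R.20 and 6.46 in R.21. None of the 8 passed without R.20 or without R.21. E2F2, E2F7 and DTL also lost their calls within batch 3 with all its groups in the fit. With the mean of the monocyte and myeloid genes as a covariate, E2F7, CENPU, ZWINT and DTL did not pass. DTL also lost its call with the erythroid mean as a covariate and with no filter on signal. MYB, a transcription factor of progenitors and of dividing blood cells, had another pattern. It measured 9.29, 9.53 and 8.57 in R.19, R.20 and R.21, against 5.35 to 8.42 in healthy animals (median 7.29). All 3 animals were above every healthy one, R.19 among the higher, and the difference was 2.08 ± 0.39 (adjusted p = 0.000867), with both its probe sets passing.

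**Figure D3:**
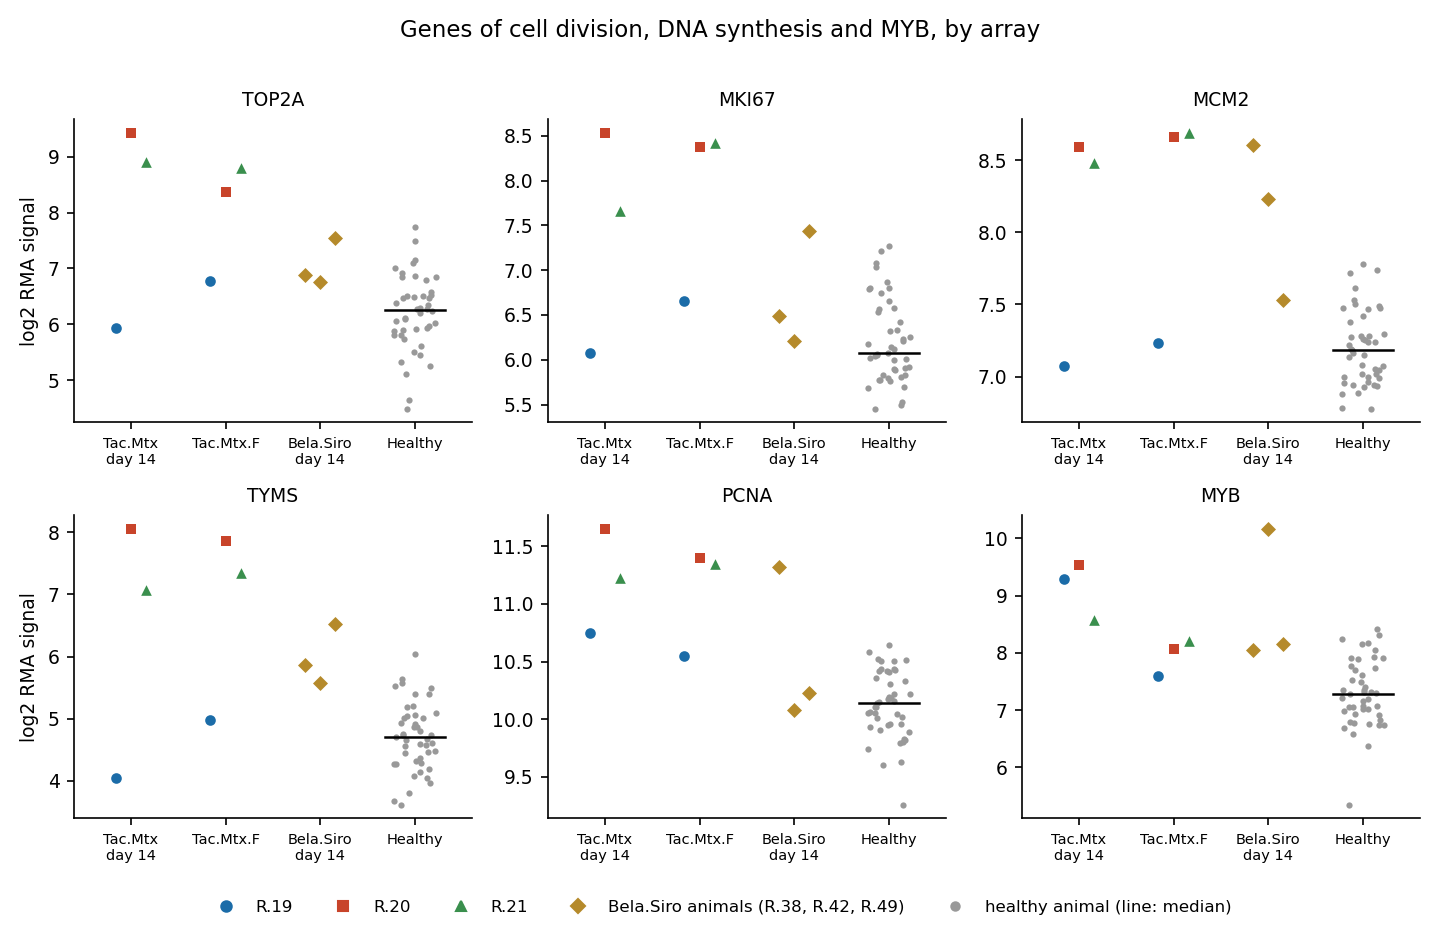
Log2 RMA signal (vertical axes, each on its own scale) of 5 genes of cell division and DNA synthesis and of MYB on each array of Tac.Mtx.D14, Tac.Mtx.F, Bela.Siro.D14 and healthy controls. R.20 and R.21 lie above the healthy animals for TOP2A, MKI67, MCM2 and TYMS while R.19 lies among them, and for PCNA and MYB all 3 day 14 points lie above the healthy range.

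Of 23 tested genes of folate and nucleotide synthesis, the pathway that methotrexate acts on, 0 passed in the limma fit, beside 1.18% of all genes, a share at which a list of this size would often hold none. They had 7 unadjusted p-values under 0.05 and a median of 0.25. TYMS, thymidylate synthase, followed the division genes: it measured 4.04 in R.19, 8.06 in R.20 and 7.08 in R.21, against 3.62 to 6.04 in healthy animals (median 4.71). R.20 and R.21 were above and R.19 below the healthy median, and the difference of 1.58 ± 0.54 did not pass (adjusted p = 0.152). Without R.19 TYMS was the 1 gene of the list to pass, beside 195 of all 10718 genes. ATIC, the enzyme of the last purine ring steps, measured 9.70, 9.85 and 9.84, against 8.93 to 10.0025 (median 9.38), all inside the healthy range, with a difference of 0.51 ± 0.15 (adjusted p = 0.076). CAD, of pyrimidine synthesis, differed by 0.22 ± 0.15 and ADSL, of purine synthesis, by 0.49 ± 0.21, neither past the threshold. MTHFD2 had no tested single-gene probe set.

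The pathway that tacrolimus acts on was covered by 20 tested genes of calcineurin, NFAT and their regulators. None passed, beside 1.18% of all genes, with 2 unadjusted p-values under 0.05 and a median of -0.06. NFATC1 differed by 0.15 ± 0.20 and NFATC2 by -0.21 ± 0.25. The kinases DYRK1A and DYRK2, which phosphorylate NFAT, differed by -0.14 ± 0.09 and -0.21 ± 0.20. RCAN1, an inhibitor of calcineurin that NFAT itself induces, measured 7.19, 7.20 and 7.59 in R.19, R.20 and R.21, against 6.49 to 7.93 in healthy animals (median 7.21), a difference of 0.26 ± 0.24. Among 17 tested genes that NFAT induces after activation 0 passed, again beside 1.18% of all genes. Of these 17, 2 had an unadjusted p under 0.05, and the median was -0.00. Differences in this list ran from -1.33 to 0.68. CD40LG, the CD40 ligand, differed by -0.00 ± 0.25, IFNG by -0.17 ± 0.59, TOX by 0.01 ± 0.21 and IL2 by 0.04 ± 0.13. IL2RA, the interleukin 2 receptor alpha chain, measured 6.50, 7.02 and 6.99, against 5.55 to 6.92 (median 6.16), with a difference of 0.68 ± 0.23 (adjusted p = 0.146). The cells were not restimulated, as far as the labels say. FKBP1A, which encodes the immunophilin that binds tacrolimus, and PPP3CA, a calcineurin catalytic subunit, had no tested single-gene probe set.

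As a list mean, interferon-induced genes were high in R.19 and R.20 and less so in R.21, while single genes could differ in order. The mean of 18 tested genes was 0.83, 1.07 and 0.41 in R.19, R.20 and R.21, against -0.52 to 0.43 in healthy animals, so that R.21 lay inside the healthy range. IFIH1, the double-stranded RNA sensor MDA5, measured 10.23, 10.45 and 9.81, against 8.91 to 9.95 (median 9.43). It was the 1 gene of the list to pass, at 0.76 ± 0.19 (adjusted p = 0.0257), and 0 fell, beside 1.07% higher and 0.103% lower of all genes. The list's median was 0.91, with 11 unadjusted p-values under 0.05. MX1, an antiviral GTPase, measured 9.57, 10.28 and 8.35, against 6.63 to 8.74 (median 7.69), and ISG15, a ubiquitin-like modifier, 8.998, 10.54 and 9.06, against 7.31 to 9.30 (median 7.93). Their differences, 1.64 ± 0.54 (adjusted p = 0.13) and 1.42 ± 0.43 (adjusted p = 0.0911), did not pass.

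Interferon-induced genes outside that list also passed, and, apart from CMPK2, are named after their values were seen. CMPK2, a mitochondrial nucleotide kinase, measured 6.81, 7.05 and 8.08 in R.19, R.20 and R.21, against 4.33 to 6.00 in healthy animals (median 5.16), with no overlap. Its difference was 2.21 ± 0.46 (adjusted p = 0.0038). The proteasome activator subunit PSME2 measured 11.47, 11.78 and 11.66, against 10.60 to 11.15 (median 10.90), a difference of 0.76 ± 0.13 (adjusted p = 0.00026), and UBE2L6, the conjugating enzyme of ISG15, 11.91, 12.38 and 11.89, against 10.92 to 11.70, a difference of 0.72 ± 0.14. All 3 animals were above every healthy one for both. APOBEC3H, a cytidine deaminase that restricts retroviruses, differed by 0.96 ± 0.22, EPSTI1 by 1.53 ± 0.39 and PARP9, an ADP-ribosyltransferase, by 0.99 ± 0.23. CMPK2 did not pass without R.21, UBE2L6 not without R.20, and APOBEC3H, EPSTI1 and PARP9 not without R.20 or without R.19, while PSME2 passed without each of the 3 animals. EPSTI1 and PARP9 also did not pass with the monocyte and myeloid score as a covariate. IFIH1 lost its call without R.20, without R.19 and with the monocyte and myeloid score as a covariate. The list's median under those settings was 0.69, 0.77 and 0.81.

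OX40 and its ligand were both higher. TNFRSF4, the costimulatory receptor OX40, measured 8.34, 8.86 and 8.85 in R.19, R.20 and R.21, against 6.92 to 8.33 in healthy animals (median 7.71). All 3 animals were above every healthy one, R.19 barely, and the difference was 1.11 ± 0.21 (adjusted p = 0.000911). TNFSF4, the OX40 ligand, named after its value was seen, measured 6.56, 6.28 and 5.92, against 4.54 to 5.88 (median 5.42), also without overlap, a difference of 0.99 ± 0.24. CD70, the ligand of CD27, measured 6.69, 7.69 and 7.34, against 4.81 to 6.60 (median 5.64), a difference of 1.50 ± 0.34 (adjusted p = 0.0105). Of 14 tested costimulation genes 2 were higher (CD70 and TNFRSF4), 0 lower, with a median of 0.14, beside 1.07% higher and 0.103% lower of all genes. CD70 did not pass without R.20 or without R.21, TNFSF4 not without R.20, without R.19, with the myeloid covariate or within batch 3 with only these groups in the fit, and TNFRSF4 passed without each of the 3 animals.

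Among 14 tested genes of regulatory T cells 2 were higher, TNFRSF4 and ENTPD1, and 0 lower, with a median of 0.38, beside 1.07% and 0.103% of all genes. ENTPD1, the ectonucleotidase CD39, measured 6.82, 7.06 and 6.83 in R.19, R.20 and R.21, against 5.02 to 6.49 in healthy animals (median 5.73), a difference of 1.27 ± 0.31 (adjusted p = 0.0192), with 1 of its 3 probe sets past the threshold. FOXP3, the defining factor of these cells, measured 5.00, 5.14 and 5.74, against 4.52 to 5.46 (median 5.08), and did not pass (0.27 ± 0.15, adjusted p = 0.416). The inhibitory receptor CTLA4 differed by 0.97 ± 0.39 (adjusted p = 0.22) and LAG3 by 0.94 ± 0.38 (adjusted p = 0.233). LAG3 exceeded all healthy animals in R.20 alone, at 9.14, beside 7.70 in R.19 and 7.78 in R.21, against 6.18 to 8.07 in healthy animals. Of 13 tested inhibitory receptor genes ENTPD1 was the 1 to pass, beside 1.18% of all genes, with a median of 0.50. ENTPD1 lost its call without R.20, without R.21 and with the monocyte and myeloid score as a covariate, where its difference was 0.96. It is also expressed by myeloid cells.

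Cytokine signalling, naive and effector genes did not pass, beside 1.18% of all genes that did. At that share lists of these sizes would often hold none. An unadjusted p under 0.05 was found in 14.4% of all probe sets. Of 16 tested genes of cytokine and STAT5 signalling 0 passed, with 7 unadjusted p-values under 0.05 and a median of 0.37. SOCS2 and CISH, feedback inhibitors that STAT5 induces, named after their values were seen, differed by 1.89 ± 0.59 (adjusted p = 0.105) and 1.33 ± 0.43 (adjusted p = 0.114). SOCS2 measured 8.65, 8.24 and 7.96 in R.19, R.20 and R.21, against 4.15 to 8.49 in healthy animals (median 6.43). PIM1, a kinase that STAT5 induces, differed by 0.75 ± 0.24 (adjusted p = 0.117) and IL2RG, the common gamma chain, by 0.19 ± 0.18. Of 15 tested genes of naive and central memory cells 0 passed, with none at an unadjusted p under 0.05 and a median of 0.13: CCR7, the lymph node homing receptor, differed by 0.49 ± 0.40, TCF7 by 0.19 ± 0.20 and FOXP1 by -0.26 ± 0.19. Of 21 tested cytotoxic effector genes 0 passed, with 1 unadjusted p under 0.05 and a median of -0.24. GZMB, granzyme B, measured 12.18, 13.01 and 13.04, against 11.37 to 13.60 (median 12.84), inside the healthy range. SRGN, the proteoglycan of cytotoxic granules, differed by -0.08 ± 0.10.

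A pair of glycolytic genes was slightly higher. LDHA, lactate dehydrogenase, measured 12.27, 12.71 and 12.62 in R.19, R.20 and R.21, against 11.61 to 12.38 in healthy animals (median 12.06), a difference of 0.49 ± 0.13 (adjusted p = 0.0481). ENO1, the glycolytic enolase, measured 12.78, 12.71 and 12.79, against 12.22 to 12.72 (median 12.46), a difference of 0.33 ± 0.08 (adjusted p = 0.032). These were the 2 of 15 tested glycolysis genes to pass, 0 fell, all 15 differences were positive and the median was 0.32, beside 1.07% higher and 0.103% lower of all genes. Neither passed within batch 3, without R.20, without R.21, with a further quantile normalization or with the monocyte and myeloid score as a covariate. ENO1 also lost its call without R.19, and LDHA with no filter on signal. Of 21 tested genes of oxidative phosphorylation 0 passed, beside 1.18% of all genes. All 21 differences were positive, with a median of 0.25, beside a median of 0.02 for all genes. Of the 21, 9 had an unadjusted p under 0.05, beside 14.4% of all probe sets. The subunits of ATP synthase ATP5F1C and ATP5PO differed by 0.33 ± 0.12 and 0.07 ± 0.17, and ATP5MC1, a further subunit outside the list and picked after its value was seen, by 0.60 ± 0.13 (adjusted p = 0.00453). STARD4, which carries cholesterol between membranes, measured 8.44, 8.11 and 7.79, against 5.25 to 7.47 (median 6.97), above every healthy animal in all 3, with a difference of 1.11 ± 0.27 (adjusted p = 0.0203) that did not pass when any 1 of the 3 animals was left out. It was the 1 of 13 tested sterol genes to pass, beside 1.18% of all genes, with 0 lower and a median of 0.28.

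Some markers of other blood cells had high values in Tac.Mtx.D14, though none of the monocyte, platelet, B cell, plasma cell, NK cell or neutrophil lists held a gene past the threshold. Of all genes 1.18% passed, a share at which lists of these sizes would often hold none. S100A9 and S100A8, calcium-binding proteins of monocytes and neutrophils, showed the largest differences of any named gene, 3.73 ± 1.08 (adjusted p = 0.0704) and 3.48 ± 1.05 (adjusted p = 0.0907), and did not pass. S100A9 measured 8.83, 9.63 and 10.48 in R.19, R.20 and R.21, against 3.86 to 8.69 in healthy animals (median 6.16), so that all 3 animals were above every healthy one. Within batch 3 alone S100A9 passed. None of 12 tested monocyte and myeloid genes passed, 4 had an unadjusted p under 0.05 and the median was 0.71. The mean of the list was 1.09, 1.06 and 1.57, against -0.91 to 1.37 in healthy animals, so that R.21 alone was above the healthy range. Among healthy arrays of batch 3 it was -0.36 to 0.81, and all 3 Tac.Mtx.D14 animals were above these. MMP8, a neutrophil marker, measured 3.38, 3.25 and 3.33, against 2.90 to 4.15. With the myeloid mean as a covariate 53 genes passed, 51 of them among the 126. PF4 and PPBP, platelet chemokines, were at 12.63, 12.09 and 10.26, against 7.33 to 13.14, and at 11.79, 11.82 and 10.22, against 5.84 to 11.82. None of 7 tested platelet genes passed (median 0.92, 3 unadjusted p-values under 0.05), and their mean was 1.21, 1.04 and 0.37, against -1.07 to 1.05 in healthy animals. The B cell marker MS4A1 measured 6.02, 4.14 and 4.61, against 3.88 to 7.73, the plasma cell gene JCHAIN 4.38, 4.09 and 4.20, against 3.41 to 7.22, and the NK cell receptor KLRF1 7.84, 9.02 and 9.34, against 7.02 to 10.61. The part of these cells in the differences of other genes was not tested beyond the covariates given.

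Several higher genes owed their call to R.21, and ANK1, RHAG and KMO among them are named after their values were seen. AHSP was the 1 of 7 tested erythroid genes to pass, beside 1.18% of all genes, with 0 lower, at 1.68 ± 0.43 (adjusted p = 0.029). ANK1, ankyrin of the red cell membrane skeleton, measured 5.03, 4.94 and 6.24 in R.19, R.20 and R.21, against 4.40 to 5.25 in healthy animals, a difference of 0.63 ± 0.16. RHAG, the Rh-associated glycoprotein, measured 5.58, 5.68 and 6.51, against 4.59 to 5.63, so that R.20 too was above the healthy range, and differed by 0.77 ± 0.19. IFIT1B measured 7.58, 7.34 and 11.73, against 4.71 to 8.93 (median 6.67), which made it the largest rise among called genes, 2.38 ± 0.62 (adjusted p = 0.0352). CREG1, a lysosomal glycoprotein, measured 8.59, 8.38 and 11.21, against 6.55 to 8.90, and KMO, of the kynurenine pathway, 3.67, 3.69 and 8.73, against 3.20 to 5.56. For all 6, R.21 was the highest value, and none passed without R.21. Without R.21 the differences were 0.06 for KMO, 0.21 for ANK1, 0.22 for AHSP, 0.48 for RHAG, 0.64 for CREG1 and 0.95 for IFIT1B.

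**Figure D4:**
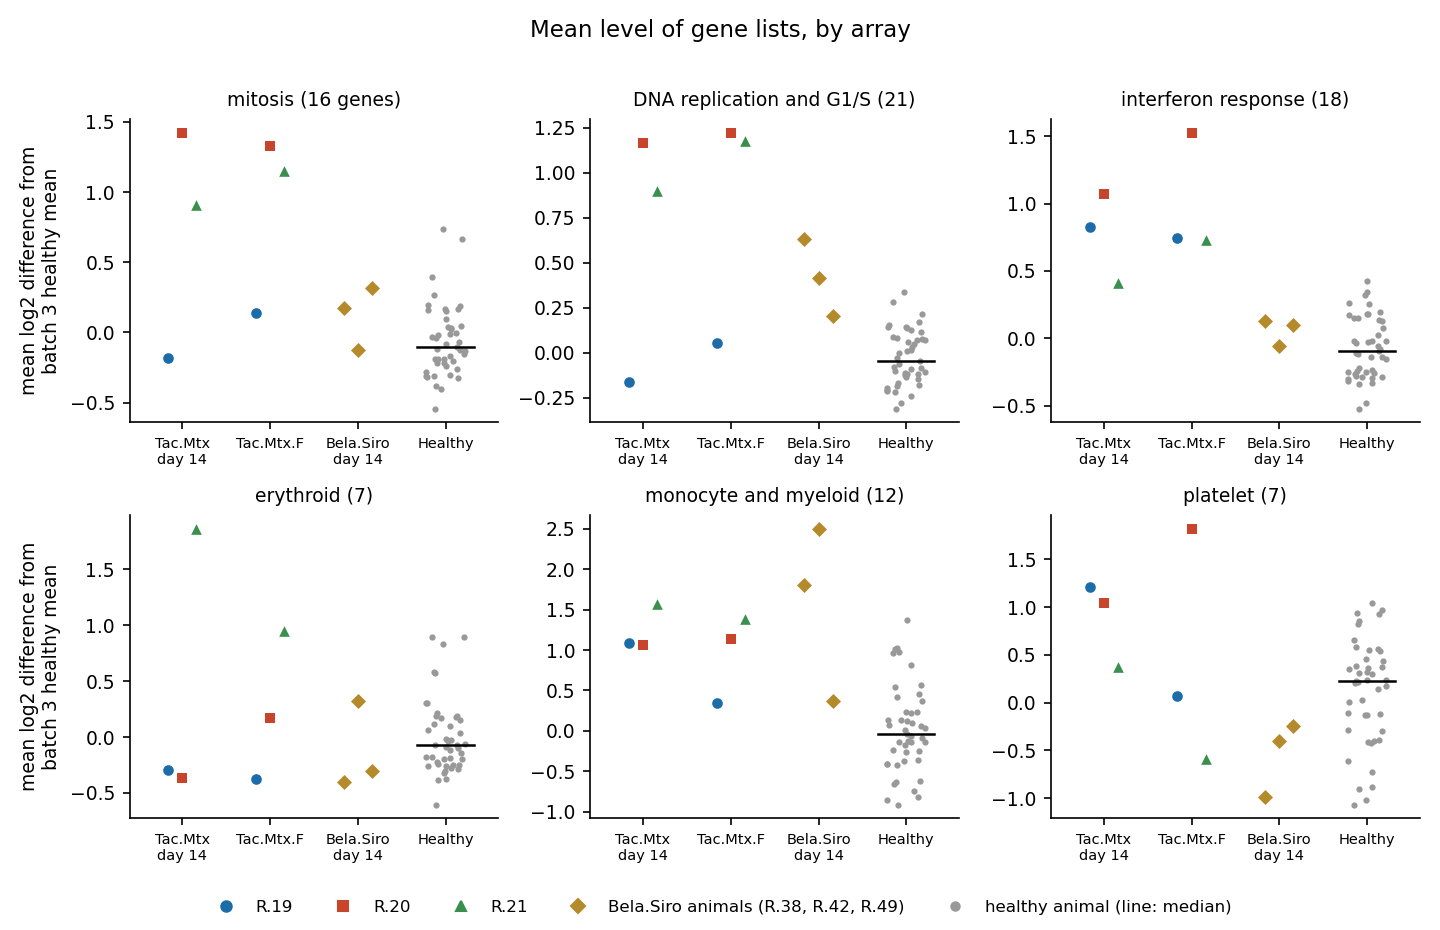
Mean log2 difference from the batch 3 healthy mean (vertical axes, each on its own scale) over the tested genes of 6 lists on each array of Tac.Mtx.D14, Tac.Mtx.F, Bela.Siro.D14 and healthy controls. At day 14 the division lists are high in R.20 and R.21, the interferon list is highest in R.20, and the erythroid list is high in R.21 alone, at 1.86.

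The 11 lower genes differed by less than 1 each. ZFP36L2, which speeds the decay of mRNAs with AU-rich elements, measured 12.69, 12.67 and 12.24 in R.19, R.20 and R.21, against 12.80 to 13.75 in healthy animals (median 13.30). All 3 animals were below every healthy one, and the difference was -0.73 ± 0.19 (adjusted p = 0.032). CAMK4, a calcium/calmodulin-dependent kinase of T cells, measured 10.26, 10.29 and 9.77, against 10.16 to 11.34 (median 10.78), with R.21 alone below the healthy range and a difference of -0.71 ± 0.17 (adjusted p = 0.0197). MXD4, which opposes MYC at MAX sites, differed by -0.60 ± 0.15, and CD48, an adhesion ligand of CD2 family receptors, by -0.36 ± 0.10. The others were LOC717280 (-0.75 ± 0.17), GAL3ST4 (-0.67 ± 0.16), LOC732516 (-0.56 ± 0.12), KLK4 (-0.53 ± 0.14), PENK (-0.46 ± 0.10), SEMA4G (-0.35 ± 0.09) and HS6ST1 (-0.33 ± 0.09). Without R.21 none of the 11 passed. Of the 36 lists examined 9 held a gene past the threshold and 27 held none, with no gene of any list lower. Of all genes 1.18% passed and 0.103% were lower, shares at which lists of these sizes would often hold none.

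Set against Bela.Siro.D14, another regimen at the same day and in the same batch, 0 of 31711 probe sets passed (0% higher, 0% lower), although 4824 (15.2%) had an unadjusted p under 0.05. The 3 Bela.Siro.D14 animals were heterogeneous. BAX measured 10.82, 10.63 and 10.49 in Tac.Mtx.D14, against 11.10 in R.38, 9.94 in R.42 and 9.64 in R.49 of Bela.Siro.D14, a difference of 0.42 ± 0.25. For ZMAT3 the Tac.Mtx.D14 values of 10.02, 10.09 and 9.13 stood beside 10.04, 8.80 and 8.03 in Bela.Siro.D14. In both genes R.38 was above at least 2 of the Tac.Mtx.D14 animals, and the other Bela.Siro.D14 animals were lower than all 3. TNFRSF4 measured 8.34, 8.86 and 8.85 in Tac.Mtx.D14, beside 8.14, 8.66 and 9.03 in Bela.Siro.D14, and the difference was 0.07 ± 0.27. The median difference of the 18 interferon genes was 0.77 and 16 were positive, beside -0.02 for all genes. MX1 measured 9.57, 10.28 and 8.35 in Tac.Mtx.D14, against 8.11, 8.12 and 8.28 in Bela.Siro.D14, without overlap, yet the difference of 1.23 ± 0.69 did not pass (adjusted p = 0.384). TP63, of the p53 family, named after its value was seen, measured 7.24, 8.54 and 6.82 in Tac.Mtx.D14, against 5.67, 5.49 and 5.40 in Bela.Siro.D14, a difference of 2.01 ± 0.46 (adjusted p = 0.137). Without R.38 1 probe set passed.

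Set against Tac.Mtx.F, the same 3 animals later, 2 probe sets passed (0.00631%), both higher at day 14, and 1865 (5.88%) had an unadjusted p under 0.05. BBC3 measured 9.78, 9.46 and 8.73 in R.19, R.20 and R.21 at day 14, against 8.27, 8.20 and 8.16 in Tac.Mtx.F, lower at the later time in each animal, with a difference of 1.11 ± 0.21 (adjusted p = 0.0259). The unnamed MmugDNA.4000.1.S1_at measured 8.23, 7.84 and 7.25, against 5.07, 6.03 and 5.53, a difference of 2.23 ± 0.43 (adjusted p = 0.0259). Because the groups share their animals, the animal was also fitted as a block: as a fixed block on these 6 arrays 0 probe sets passed, with 3792 unadjusted p-values under 0.05, and as a random block 4 passed. The calls also rested on single arrays: 0 passed without the day 14 array of R.20 or of R.19, or without the Tac.Mtx.F array of either, and without the Tac.Mtx.F array of R.21 2 others passed. ZMAT3 measured 8.37, 8.76 and 9.24 in Tac.Mtx.F, below day 14 in R.19 and R.20 but not in R.21. Its difference of 0.96 ± 0.39 did not pass (adjusted p = 0.773), nor did those of BAX (0.86 ± 0.25, adjusted p = 0.534) and DDB2 (0.78 ± 0.20, adjusted p = 0.401). Over the 25 genes known as p53 targets the median difference was 0.19 and 18 were positive, beside -0.04 for all genes. That group was put together after the day 14 values were seen, which favours positive differences, so this is no test of it. MKI67 at the later day was 6.65 in R.19, 8.37 in R.20 and 8.42 in R.21, so the order of R.19 below the other animals was found at both times. The days of Tac.Mtx.F differ between the animals, so that day and animal cannot be told apart there.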

How the data were processed

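CD3 T cells were sorted from macaque blood by flow cytometry, and 70 to 85 ng of total RNA were labelled by a 3' in vitro transcription protocol, per the labels' protocols. The deposited values are log2 signals of 52865 probe sets on 102 arrays, made with RMA in affy per the submitters' processing notes (versions not given in the sources used here). Whether the authors adjusted for batch is not given there. Among healthy arrays, a test of batch gave p under 0.05 for 0.274% of probe sets and above 0.95 for 24.9%, where 5% is expected in each tail.

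The pair of arrays of 1 healthy animal was averaged and 99 control probe sets were left out. Probe sets were tested if 3 arrays or more reached 5.21, the overall median, which left 31711. They were tested with limma 3.58.1 in R 4.3.3 (tables read with package data.table, version 1.17.8; figures with Python 3.11.15 and matplotlib 3.10.9), with all 16 groups and 6 batches in 1 fit and Benjamini-Hochberg adjustment over all probe sets. For each gene the probe set of highest mean among those with that gene alone was used, which gave 10718 genes. Gene names came from the platform annotation, where 24969 probe sets have 1 gene, 361 several and 27535 none. On simulated data the test recovered 76% of 2-fold and 99% of 4-fold changes, with 8 false calls among 183. These rates describe the simulation alone. In the real arrays the spread could differ strongly between groups. For AHSP the standard deviation was 2.54 in Tac.Mtx.D14 and 0.37 in healthy animals. Whether the rates hold under such a spread was not tested.

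The members and the lists were chosen with earlier results of these data known. Named genes were the 12 largest rises and falls past the threshold with all 3 animals outside the healthy quartiles, up to 4 called members of each described list (or 2 of highest level), a fixed set of 25 genes of which 20 had a tested probe set, and markers of other cells. Further names are said to be chosen after their values were seen. The number of arrays, 3 in the smaller groups, limits the precision. Samples of Tac.Mtx.D14 and Tac.Mtx.F with the same number come from the same animal, and the correlation of their deviations from the group means was 0.395 for R.21, 0.221 for R.20 and 0.248 for R.19.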

Additional observations from a re-analysis of the deposited data

Results flagged for a closer look

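Between day 14 and the later day in the same 3 animals, 2 results passed the test of the difference. BBC3 differed by 1.11 ± 0.21 on the log2 scale, Tac.Mtx.D14 minus Tac.Mtx.F (limma, adjusted p = 0.0259), and was higher at day 14 in 3 of 3 animals. The probe set MmugDNA.4000.1.S1_at, which has no gene name, differed by 2.23 ± 0.43 (adjusted p = 0.0259), and was also higher at day 14 in 3 of 3 animals. It measured 7.27, 4.66 and 5.60 in Bela.Siro.D14, with R.38 alone above the healthy maximum of 6.70. Both calls come from a fit without the animal as a block: 0 probe sets passed with the animal as a fixed block, and 0 without the day 14 or the later array of R.19 or of R.20.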

How the results depend on the processing

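The count of 279 probe sets against healthy controls became 472 with only the groups compared in the fit, 1305 with array weights (67.5% higher, beside 86.7%), 125 with a 2-fold minimum (98.4% higher) and 128 with the monocyte and myeloid score as a covariate. It was 89 to 416 with 1 Tac.Mtx.D14 animal left out (89 without R.21, 106 without R.20), and 228 to 388 under the other alternatives. Against Bela.Siro.D14 the count of 0 held except without R.38, so the range with 1 animal left out was 0 to 1. Against Tac.Mtx.F the count of 2 became 0 within batch 3, 0 with a further quantile normalization, 4 with the animal as a random replicate block, 0 with it as a fixed replicate block, and 0 to 3 with 1 array left out. No paired analysis was possible against healthy controls because the groups share 0 animals. Of 62 called genes named in the text or its lists, 9 kept their call under all 21 alternatives or those that applied and 0 turned direction. Of genes that did not pass, some turned sign under some alternative: ALAS2, at 1.49 with all animals, and others at -0.17 to 0.22. CD40LG gave 0.0199 with no batch term, 0.0656 with array weights, 0.0319 with the actin ratio, 0.1314 with the myeloid, 0.0292 with the B and plasma cell and 0.0083 with the erythroid score as a covariate, and 0.2585 as the mean of its probe sets. TOX gave -0.0315 with quantile normalization, -0.0283 with the actin ratio and -0.0229 with the B and plasma cell scores. The myeloid score gave 0.11 for GZMB and -0.0075 for IL2, and the erythroid score 0.0402 for GZMB, 0.0303 for IFNG and 0.0016 for MMP8. With 1 animal left out, the range was -0.1015 (without R.21) to 2.3018 for ALAS2, -0.1126 (without R.20) to 0.1702 for ATP5PO, -0.0707 to 0.072 (without R.21) for CD40LG, -0.2729 to 0.1613 (without R.19) for GZMB, -0.4401 to 0.024 (without R.21) for IFNG, -0.0537 (without R.21) to 0.1869 for IL2, -0.1662 to 0.009 (without R.21) for SRGN, -0.0855 (without R.19) to 0.1647 for TOX and -0.0794 (without R.19) to 0.4986 for TRAT1. The cause was not tested. The erythroid covariate and the list counts with single animals left out were chosen after seeing the data.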

Other observations

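Among genes not described above, GNPDA1, a glucosamine-6-phosphate deaminase, measured 7.60, 7.89 and 7.69 in R.19, R.20 and R.21, against 6.03 to 7.57 in healthy animals (median 6.57). All 3 animals were above every healthy one, and the difference was 1.27 ± 0.22 (limma, adjusted p = 0.00026). It was chosen after its value was seen. Against Tac.Mtx.F, the 21 cytotoxic effector genes had a median difference of -0.65 with 1 positive, and the 15 naive and central memory genes a median of 0.39 with 13 positive, beside -0.04 for all genes. R.19 and R.20 carried both medians. The mean of the cytotoxic genes was -0.36, -0.28 and -0.26 in R.19, R.20 and R.21 at day 14, against 0.84, 0.49 and -0.37 in Tac.Mtx.F, and that of the naive genes 0.46, 0.05 and -0.06, against -0.51, -0.29 and 0.05. R.21 went the other way on both lists. No gene of either list passed in that comparison.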
